A study of Saccharomyces cerevisiae with 13 samples.

Results

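The genes described here encode subunits of the mitochondrial respiratory chain and of the ATP synthase of the yeast Saccharomyces cerevisiae. They were taken from a list of 39 named nuclear genes: 3 NADH dehydrogenases, 4 subunits of succinate dehydrogenase, cytochrome c (CYC1), 9 subunits of the cytochrome bc1 complex, 9 of cytochrome c oxidase, and 13 genes of the ATP synthase, its inhibitor INH1 included. All 39 were found among the 5449 genes measured, each with 1 probe set, and 4 of them (QCR2, ATP4, ATP15 and ATP20) lie on chromosome XVI. RNA of 13 chemostat cultures was hybridised to 1-colour Affymetrix arrays, 1 array per culture. The parent strain TMB3400, an industrial xylose-fermenting yeast, gave 2 cultures with 15 mM furfural in the feed and 3 with 25 mM. TMB3400-FT30-3 (FT30-3 below), obtained from it by adaptation to furfural, gave 3 cultures at 15 mM, 2 at 25 mM and 3 at 36 mM. All cultures were fed limiting glucose and little oxygen, so both factors were shared by every group, and no group was free of furfural. TMB3400 washed out at 36 mM, per the labels, so the strains could be compared at 15 and 25 mM only. The sources used here do not say whether FT30-3 is 1 clone. Furfural is an aldehyde formed when plant biomass is broken down, and it inhibits yeast growth.

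In yeast the respiratory chain has no proton-pumping complex I. NADH is oxidised by NDI1 on the matrix side of the inner membrane and by NDE1 and NDE2 on the outer side, and succinate dehydrogenase passes electrons from succinate. Ubiquinone carries the electrons to the cytochrome bc1 complex, cytochrome c takes them on to cytochrome c oxidase, and the proton gradient formed on the way drives the ATP synthase, whose F1 sector makes ATP and whose Fo sector and peripheral stalk hold it in the membrane. Most nuclear genes of the chain are activated by the Hap2/3/4/5 complex when cells respire, and some subunits have a second isoform for low oxygen: COX5B in place of COX5A, and CYC7 in place of CYC1. A few core subunits are encoded in the mitochondrial genome. These and COX26 had no probe set in the annotation used and were not analysed here.

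Values are log2(intensity + 1) of the deposited array values, after each array was shifted to a common median over the 5498 S. cerevisiae probe sets. A log2 change of -1 means a value divided by 2, and ± is the standard error of the fitted change unless SD is written. A change passed the test where its adjusted p, from limma with Benjamini-Hochberg adjustment over all probe sets, was under 0.05. The probe sets of these genes were bright: 37 of 39 had a mean log2 intensity of 12 or more, and the brightest probe set of each array reached 14.1 to 14.3. The level of a probe set depends on its probes, so levels are compared between arrays and never between genes. The cultures were measured in bulk, so fewer cells of a kind and less RNA per cell cannot be told apart. Replicate arrays correlated at r = 0.985 to 0.995 over probe sets, except that replicate 1 of FT30-3 at 36 mM reached 0.966 to 0.969 with its group. That array is described below, and where it moved a value named here by over 1.5 times, or ended a call, the value without it is given. Nothing in the labels names a batch.

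The rise from 15 to 36 mM furfural in FT30-3 went with lower signals of respiratory genes. In that comparison 13 of the 39 genes fell, 0 rose, and all 39 had a value below 0. Over all genes 11.2% fell and 11% rose in this comparison, and among the 1026 genes of similar brightness (mean log2 of 12 or more) 20% fell. The median log2 change of the 39 genes was -0.28, against -0.03 over all genes and -0.16 over genes of mean log2 of 12 or more. The groups did not overlap, with 36 mM lower, for 33 of the 39 genes, against 22.3% of all genes and 43% of the bright ones. In 8 genes (NDE1, NDE2, SDH3, SDH4, QCR6, COX5A, COX7 and ATP16) the 36 mM arrays lay below each of the other 10 arrays of the study, against 7.69% of all genes and 11.5% of the bright ones. By complex, the genes that fell were 3 of 3 NADH dehydrogenases, 2 of 4 subunits of succinate dehydrogenase, CYC1, 4 of 9 subunits of the bc1 complex, 1 of 9 of cytochrome c oxidase and 2 of 13 of the ATP synthase.

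This result depended on how the arrays were scaled. The median of all genes rose by 0.17 between 15 and 36 mM in the values as deposited, and the shift was unequal along the brightness range. Genes of mean log2 from 9 to 10 had a median change of 0.26 as deposited and genes of 13 or more had 0.02, or 0.07 and -0.18 after centring. With the values as deposited only NDE2 among the 39 fell, against 4.73% of all genes, and 25 of the 39 values were below 0, with a median of -0.09. Quantile and cyclic loess normalization, which even out the brightness range, each left NDE1 and NDE2. The direction of the other 11 calls was the same under each scaling, but the size of the fall is not settled by these data. Leaving out FT30-3 replicate 1 at 15 mM left 2 calls (NDE1 and COX5A), leaving out replicate 2 or 3 at 15 mM left 6 or 5, leaving out replicate 2 at 36 mM left 6, and a fit of only the groups compared left 1 (NDE2). A robust variance trend gave 20 calls and array weights 31. Over the 24 alternatives, QCR9 was called in 18, CYT1, QCR6, ATP16 and ATP18 in 17, SDH3 in 16, NDI1 and CYC1 in 15, and SDH1 and QCR8 in 10.

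**Figure D1:**
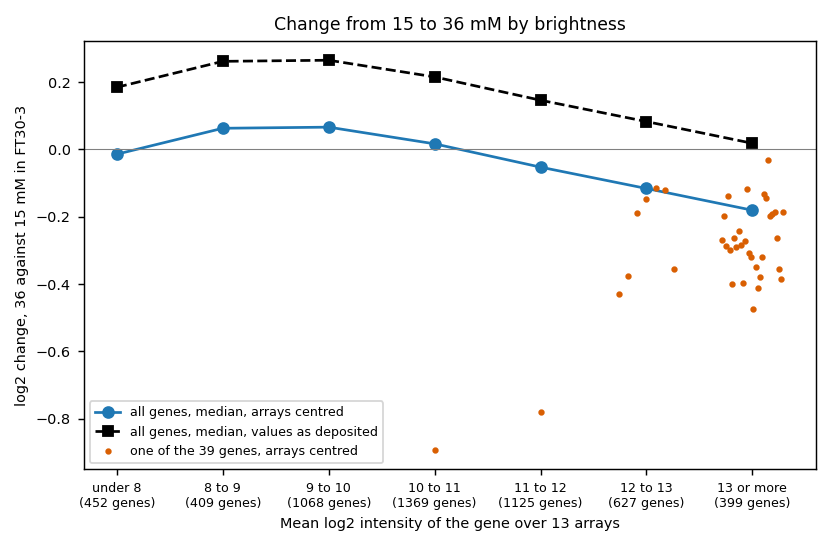
Log2 change from 15 to 36 mM in FT30-3 (n = 3 and 3 arrays) against the mean log2 intensity of the gene over 13 arrays. Lines are medians of all genes in each band of brightness, blue after centring and black as deposited, and orange points are the 39 respiratory genes after centring; most orange points lie in the brightest band, below its blue median of -0.18.

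Among the NADH dehydrogenases, NDE2 showed the largest change of the 39 genes. NDE2 and NDE1 are the dehydrogenases that oxidise cytosolic NADH at the outer face of the inner membrane. The log2 intensity of NDE2 was 10.63 and 11.02 in TMB3400 at 15 mM, 10.60, 10.81 and 11.06 in TMB3400 at 25 mM, 10.86, 10.43 and 10.09 in FT30-3 at 15 mM, 10.94 and 10.47 in FT30-3 at 25 mM, and 9.26, 9.65 and 9.79 in FT30-3 at 36 mM. All 3 arrays at 36 mM lay below each of the other arrays, while the other groups overlapped. NDE2 fell by 0.89 ± 0.22 on the log2 scale from 15 to 36 mM (adjusted p = 0.0153), to 0.539 of its level, and by 1.14 ± 0.25 from 25 to 36 mM (adjusted p = 0.0212). It was also the most variable gene within 4 of the 5 groups, with an SD of 0.39 in FT30-3 at 15 mM. The fall from 15 mM passed in 23 of 24 alternative settings, with adjusted p from 0.00785 to 0.0646, and was lost without FT30-3 replicate 1 at 15 mM. The fall from 25 mM was lost without FT30-3 replicate 1 at 25 mM (adjusted p = 0.184) and in the fit of only the groups compared (adjusted p = 0.0794).

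For NDE1 the log2 intensity was 12.50 and 12.51 in TMB3400 at 15 mM, 12.60, 12.50 and 12.47 in TMB3400 at 25 mM, 12.53, 12.60 and 12.33 in FT30-3 at 15 mM, 12.25 and 12.20 in FT30-3 at 25 mM, and 12.17, 12.09 and 11.90 at 36 mM. Here too the 3 arrays at 36 mM were the lowest of the 13, and the 25 mM arrays of FT30-3 lay between them and the rest. NDE1 fell by 0.43 ± 0.10 from 15 to 36 mM (adjusted p = 0.00912), a call kept in 22 of 24 alternatives (adjusted p from 0.0016 to 0.108) and lost with the values as deposited and in the fit of only the groups compared. From 15 to 25 mM its change was -0.26 ± 0.11 in FT30-3 (adjusted p = 0.373) and 0.02 ± 0.11 in TMB3400 (adjusted p = 0.992). The internal enzyme NDI1, which oxidises NADH of the matrix, read 12.41, 12.54 and 12.46 in FT30-3 at 15 mM, 12.36 and 12.08 at 25 mM, and 12.27, 11.995 and 12.02 at 36 mM. Its arrays at 36 mM lay below those at 15 mM and overlapped those at 25 mM. NDI1 fell by 0.38 ± 0.10 from 15 to 36 mM (adjusted p = 0.0243), and by 0.18 as deposited, which did not pass (adjusted p = 0.219).

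Succinate dehydrogenase links the citric acid cycle to the chain: SDH1 is the flavoprotein, SDH2 the iron-sulfur subunit, and SDH3 and SDH4 anchor them in the membrane. SDH1 read 13.32 and 13.33 in TMB3400 at 15 mM, 13.36, 13.28 and 13.31 in TMB3400 at 25 mM, 13.16, 13.18 and 13.17 in FT30-3 at 15 mM, 13.12 and 12.97 in FT30-3 at 25 mM, and 13.04, 12.79 and 12.87 at 36 mM. Every FT30-3 array was thus below every TMB3400 array, and the arrays at 36 mM were below those at 15 mM. SDH1 fell by 0.27 ± 0.08 with 36 mM (adjusted p = 0.0392) and SDH3 by 0.29 ± 0.08 (adjusted p = 0.025). SDH2 and SDH4 did not pass, at -0.20 ± 0.08 (adjusted p = 0.0876) and -0.14 ± 0.08 (adjusted p = 0.21). As deposited, SDH1 and SDH3 were at -0.07 and -0.09, while SDH2 and SDH4 were above 0.

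In the cytochrome bc1 complex, which hands electrons from ubiquinol to cytochrome c, the genes that fell at 36 mM were CYT1, QCR6, QCR8 and QCR9. CYT1, cytochrome c1, read 13.29, 13.43 and 13.21 in FT30-3 at 15 mM, 13.21 and 12.996 at 25 mM, and 13.09, 12.72 and 12.92 at 36 mM. Its groups at 15 and 36 mM did not overlap, and the fall was 0.40 ± 0.11 (adjusted p = 0.0228). QCR9, a small subunit needed for the Rieske protein to function, fell by 0.40 ± 0.10 (adjusted p = 0.0171), QCR6 by 0.29 ± 0.07 (adjusted p = 0.0165) and QCR8 by 0.28 ± 0.09 (adjusted p = 0.0407). The core subunits COR1 and QCR2 had the smallest changes of the complex, -0.19 ± 0.10 and -0.15 ± 0.09, and the Rieske iron-sulfur protein RIP1, QCR7 and QCR10 lay between -0.24 and -0.27; these 5 genes did not pass. Without replicate 1 at 36 mM, RIP1, QCR7 and QCR10 were at -0.17, -0.12 and -0.11, while COR1 was at -0.29 and passed (adjusted p = 0.0264). As deposited, 7 of the 9 values of the complex were below 0, and COR1 and QCR2 were at 0.01 and 0.05.

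CYC1, the main isoform of cytochrome c, read 13.42 and 13.54 in TMB3400 at 15 mM, 13.45, 13.35 and 13.34 in TMB3400 at 25 mM, 13.49, 13.45 and 13.42 in FT30-3 at 15 mM, 13.31 and 13.15 in FT30-3 at 25 mM, and 13.24, 13.09 and 13.15 at 36 mM. The 36 mM arrays lay below those at 15 mM, and the 25 mM arrays of FT30-3 overlapped them. It fell by 0.30 ± 0.08 from 15 to 36 mM (adjusted p = 0.0222). CYC7, the isoform known for low oxygen and no member of the list, read 13.64, 13.59 and 13.55 at 15 mM and 12.29, 13.003 and 13.07 at 36 mM. It fell by 0.80 ± 0.17 (adjusted p = 0.00689), and by 0.55 without replicate 1 at 36 mM (adjusted p = 0.00167). Both isoforms were therefore lower at 36 than at 15 mM after centring, and CYC7 also fell as deposited, by 0.61 (adjusted p = 0.018), where CYC1 was at -0.10 (adjusted p = 0.396).

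Cytochrome c oxidase reduces oxygen at the end of the chain. Its subunit COX5A, the isoform used with ample oxygen, read 13.31, 13.24 and 13.28 in FT30-3 at 15 mM, 13.13 and 13.01 at 25 mM, and 12.92, 12.99 and 12.99 at 36 mM, below all other arrays of the study. COX5A fell by 0.31 ± 0.07 from 15 to 36 mM (adjusted p = 0.0127), a call kept in 20 of 24 alternatives. The call was lost with the values as deposited, with quantile and cyclic loess normalization, and in the fit of only the groups compared. The hypoxic isoform COX5B read 12.25, 11.93 and 11.93 at 15 mM, 11.68 and 11.81 at 25 mM, and 10.44, 11.69 and 11.63 at 36 mM. Replicate 1 at 36 mM was the lowest of its 13 arrays by over 1 log2 unit. The change of COX5B was -0.78 ± 0.27 (adjusted p = 0.0603) and, without that array, -0.37 (adjusted p = 0.0627). It did not pass either way, but it passed when replicate 2 or 3 at 36 mM was left out, which gave the remaining low array more weight, with a robust variance trend, and with array weights at -0.33. Both isoforms had values below 0, also as deposited, and their ratio was not tested. The other nuclear-encoded subunits, which surround the mitochondrially encoded core, had changes from -0.12 (COX4) to -0.47 (COX7), and none passed, with adjusted p between 0.0551 (COX7) and 0.406 (COX4). Without replicate 1 at 36 mM these changes ran from -0.08 (COX4) to -0.25 (COX7, adjusted p = 0.065), and COX12 went from -0.38 to -0.21 (adjusted p = 0.133). COX7 passed when replicate 2 or 3 was left out instead, at -0.57 (adjusted p = 0.045) and -0.60 (adjusted p = 0.0293).

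Of the 6 groups of genes, the ATP synthase had the median change nearest to 0 at 36 mM, -0.19. In the F1 sector, the changes of ATP1 and ATP2, which form the catalytic head, and of ATP3, the rotating gamma subunit, were -0.13 ± 0.07, -0.14 ± 0.07 and -0.03 ± 0.08, and only ATP16, the delta subunit, fell (-0.26 ± 0.07, adjusted p = 0.0227). Without replicate 1 at 36 mM ATP3 was at -0.08 (adjusted p = 0.427). ATP16 read 13.30, 13.26 and 13.36 in FT30-3 at 15 mM, 13.26 and 13.23 at 25 mM, and 13.04, 12.97 and 13.12 at 36 mM, below all other arrays. None of the 4 stalk subunits ATP4, ATP5, ATP7 and ATP14 passed, with changes from -0.12 to -0.20. Of the Fo subunits ATP17, ATP18 and ATP20, ATP18 fell by 0.38 ± 0.11 (adjusted p = 0.0239), from 13.39, 13.32 and 13.42 at 15 mM to 12.79, 12.97 and 13.21 at 36 mM. INH1, which keeps the enzyme from hydrolysing ATP, was at -0.36 ± 0.15 (adjusted p = 0.106), and at -0.17 without replicate 1 at 36 mM (adjusted p = 0.277). As deposited 4 of the 13 ATP synthase values were below 0 and the median was 0.01, so for this complex the sign of the median depended on the scaling; the 95% intervals after centring reached from -0.69 (INH1) to 0.14 (ATP3).

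**Figure D2:**
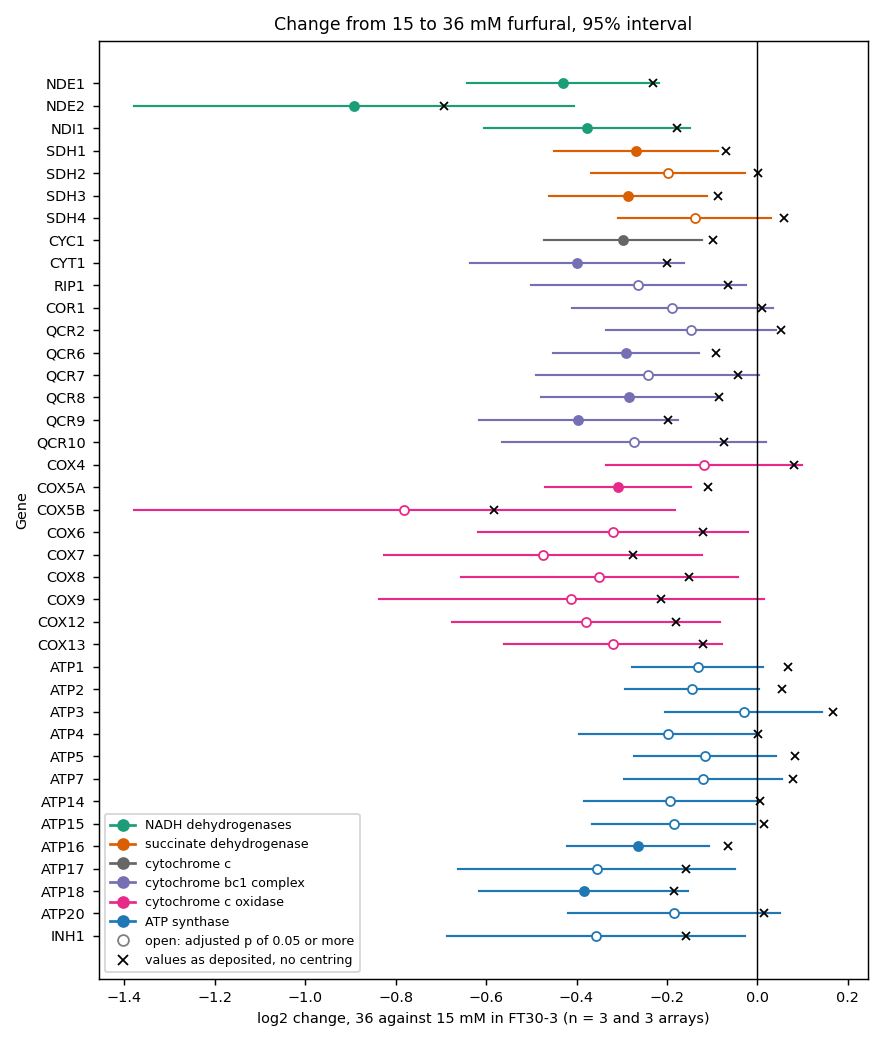
Log2 change from 15 to 36 mM furfural in FT30-3 (n = 3 and 3 arrays) for each gene, coloured by complex, with its 95% interval after centring. Filled points passed (13 genes, adjusted p under 0.05), open points did not, and crosses are the values as deposited, of which 25 of 39 lie below 0.

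Replicate 1 of FT30-3 at 36 mM differed from replicates 2 and 3 by gene length. The 21 genes shorter than 500 bases had a median of -0.30 in replicate 1 against the mean of the other arrays of the group, with 19 of 21 below 0, and the 18 longer ones had a median of 0.09, with 5 of 18 below 0. Across the 39 genes this deviation correlated with log2 gene length at r = 0.59 and rho = 0.67, as a description over genes that share 1 array. The same held over the genome, where 659 short genes had a median of -0.35 and 4790 longer genes 0.11. The largest deviations among the 39 were in COX5B (-1.22), which at 544 bases with its intron lies just over that length limit, and in COX9 (-0.75), COX7 (-0.68) and INH1 (-0.56). Long genes such as COR1 (0.32) and CYT1 (0.27) deviated upward, but NDE2, at 1638 bases, deviated downward (-0.46). Smaller differences of this kind were seen between replicates of the other groups, such as TMB3400 at 25 mM, where the short genes had a median of -0.13 in replicate 1 and the long ones 0.03. The correlation with length was not weaker in every other group. For replicate 1 of FT30-3 at 25 mM it was r = 0.68, with medians of -0.07 for short and 0.11 for long genes. Without replicate 1 at 36 mM, 14 genes fell from 15 to 36 mM with a median change of -0.21: COR1 and SDH2 were added and QCR8 was lost, at -0.20 (adjusted p = 0.0774). The part of RNA quality or labelling in this deviation was not tested.

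**Figure D3:**
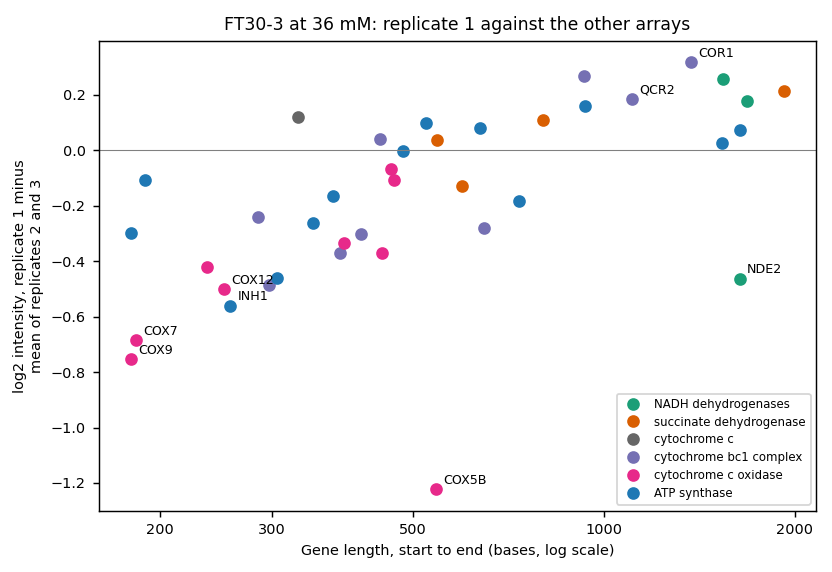
Deviation of replicate 1 of FT30-3 at 36 mM from the mean of replicates 2 and 3 (log2 intensity, 1 point per gene) against gene length in bases on a log axis, coloured by complex. Short genes lie mostly below 0 and long genes mostly above, with COX5B (544 bases) at -1.22 the lowest.

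The step from 25 to 36 mM, and that from 15 to 25 mM, gave few calls. From 25 to 36 mM NDE2 was the only gene of the 39 to fall and 0 rose, where 3.73% of all genes fell and 3.4% rose; 3 of the 39 had an unadjusted p under 0.05, against 22.5% of all genes and 16.2% of the bright ones, and the median change was -0.12, against 0.01 over all genes. From 15 to 25 mM 0 of 39 passed in FT30-3, where 2.15% of all genes passed, and 0 of 39 in TMB3400, where 1.63% did. At an unadjusted p under 0.05 there were 7 of the 39 (17.9%) in FT30-3, where 11.6% of all genes and 17.5% of the bright ones were under it, and 0 in TMB3400, where the shares were 9.47% and 7.21%. In FT30-3 the median change from 15 to 25 mM was -0.19 and 26 genes did not overlap between the doses, all lower at 25 mM, against 16.2% of all genes and 39.2% of bright ones. The bright genes had a median of -0.14 there, and as deposited the 39 genes were at -0.02. In TMB3400 the median was -0.03 after centring and 0.11 as deposited, so its sign depended on the scaling. The difference between the strains in their response to 25 mM passed for 0 of 39 genes, against 0.679% of all genes, and 1 had an unadjusted p under 0.05, against 3.56% of all genes. That gene was QCR2, at -0.37 ± 0.14 (adjusted p = 0.796).

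**Figure D4:**
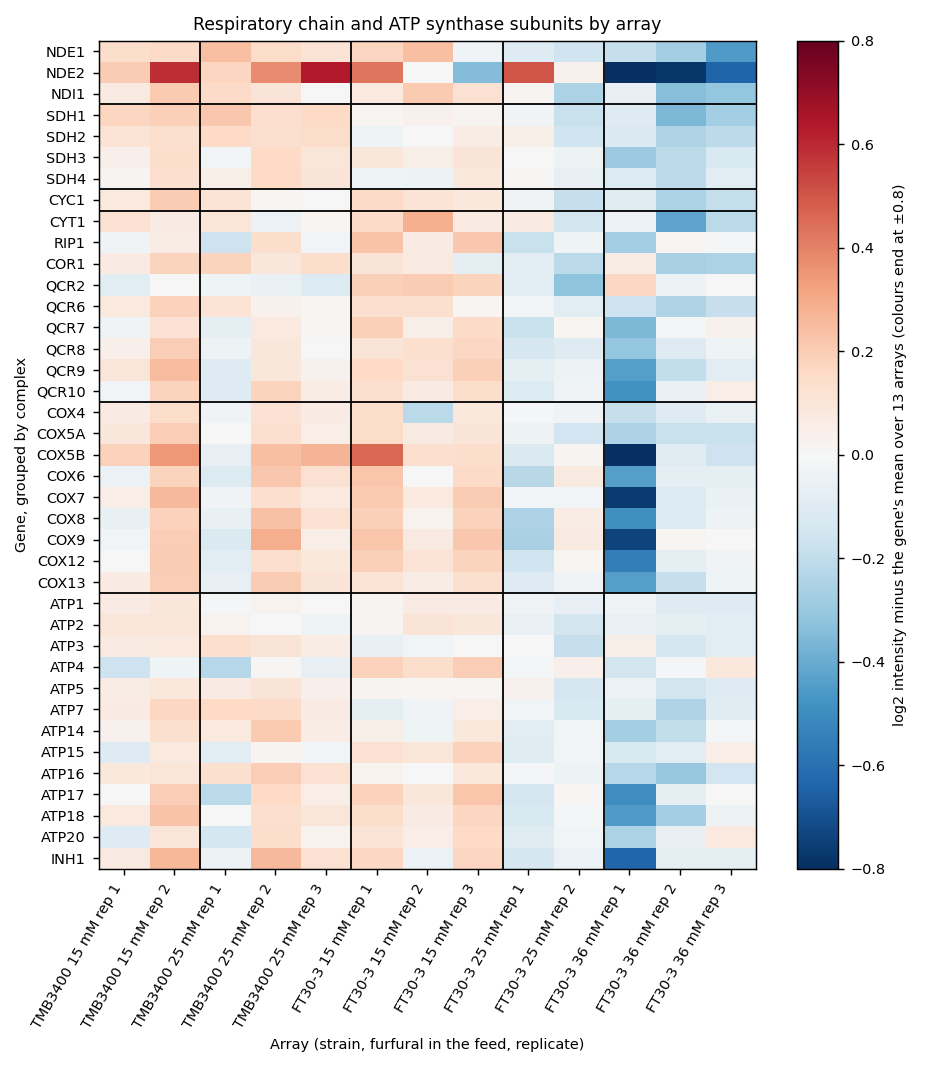
Log2 intensity of each of the 39 genes on each of the 13 arrays, after centring, as the difference from the gene's mean over all arrays; red is higher and blue lower, and colours end at 0.8 in either direction. The 36 mM arrays of FT30-3 are mostly blue, darkest in replicate 1 for small subunits of cytochrome c oxidase and in all 3 arrays for NDE2.

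Between the strains, 0 of the 39 genes passed at 15 mM, where 2.2% of all genes passed, 0 at 25 mM, where 6.61% did, and 0 averaged over both doses, where 11.2% did. At an unadjusted p under 0.05 there were 2 of the 39 at 15 mM, where 12.2% of all genes and 9.06% of the bright ones were under it. There were 5 at 25 mM (19.4% and 16.8%) and 6 in the average (25.5% and 24.8%), so none of these counts lay above the share over all genes. No 95% interval of the average reached a log2 difference of 1 in either direction, and together they spanned -0.63 to 0.36. At 15 mM the median was -0.02, equal to that over all genes. At 25 mM 38 of 39 values were below 0 with a median of -0.13, against -0.04 over all genes and -0.08 over bright genes, and 18 genes did not overlap with FT30-3 lower, against 21.6% of all genes and 34.3% of bright ones. Under quantile and cyclic loess normalization the median at 25 mM was -0.06.

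The gene nearest to the threshold was SDH1, whose averaged difference was -0.21 ± 0.07 (adjusted p = 0.0579). For 5 of the 39 genes all FT30-3 arrays at 15 and 25 mM lay below all TMB3400 arrays, against 5.18% of all genes and 5.56% of the bright ones, and for 0 genes they lay above, against 6.74% of all genes. The 5 were SDH1, SDH2, ATP3, ATP5 and ATP7, the last 3 being the gamma subunit of F1 and a pair of stalk subunits. SDH2 read 13.46 and 13.48 in TMB3400 at 15 mM, 13.51, 13.48 and 13.50 at 25 mM, and in FT30-3 13.32, 13.35 and 13.41 at 15 mM and 13.40 and 13.20 at 25 mM. The lowest TMB3400 array lay just above the highest FT30-3 array, and the averaged difference of SDH2 was -0.15 ± 0.06 (adjusted p = 0.138). Those of ATP3, ATP5 and ATP7 were -0.15 ± 0.06, -0.09 ± 0.06 and -0.17 ± 0.06. Without FT30-3 replicate 1 at 36 mM, which enters this comparison only through the shared estimate of the spread, SDH1 and COR1 passed, with averaged adjusted p of 0.0154 and 0.0462.

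Genes on chromosome XVI were higher in FT30-3 as a group, which sets the background for QCR2, ATP4, ATP15 and ATP20. Averaged over both doses, 59% of the 424 genes of that chromosome were called higher and their median log2 difference was 0.43, against -0.04 for the other chromosomes. The 87 chromosome XVI genes of mean log2 of 12 or more had a median of 0.29 at 15 mM and 0.21 at 25 mM. The 4 subunits encoded there had a median of 0.19 at 15 mM and -0.05 at 25 mM, against -0.02 and -0.15 for the 35 encoded elsewhere, and 0 of the 4 passed at either dose, where 24.1% and 33.7% of the chromosome's genes were called higher. All 4 were bright, and of the 87 bright genes of the chromosome 12.6% and 14.9% were called higher at the 2 doses.

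ATP4, the b subunit of the peripheral stalk, showed the clearest strain difference of the 4. It read 13.47 and 13.61 in TMB3400 at 15 mM, 13.41, 13.65 and 13.57 in TMB3400 at 25 mM, 13.83, 13.78 and 13.83 in FT30-3 at 15 mM, 13.63 and 13.68 in FT30-3 at 25 mM, and 13.49, 13.63 and 13.72 at 36 mM. The strains did not overlap at 15 mM and overlapped at 25 mM. The difference was 0.27 ± 0.10 at 15 mM (adjusted p = 0.255), 0.11 ± 0.10 at 25 mM (adjusted p = 0.601) and 0.19 ± 0.07 averaged (adjusted p = 0.113). The averaged difference passed under quantile normalization (adjusted p = 0.0358), cyclic loess (0.0294) and a robust variance trend (0.0459), and the difference at 15 mM passed with array weights (0.0363). Set against its partners ATP5, ATP7 and ATP14, each taken from its own mean over the arrays, ATP4 was higher in FT30-3 by 0.35 at 15 mM and 0.28 at 25 mM. At these doses all 5 FT30-3 arrays, from 0.02 to 0.19, lay above all 5 TMB3400 arrays, from -0.33 to -0.12. The 3 FT30-3 arrays at 36 mM, a dose at which TMB3400 has none, lay from -0.02 to 0.19. Part of the gap at 15 and 25 mM lay in the partners, each of which had a lower mean in FT30-3 at both doses. For ATP5 and ATP7 all FT30-3 arrays at these doses lay below all TMB3400 arrays. The mean of ATP7 at 25 mM was 13.11 in TMB3400 and 12.92 in FT30-3.

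QCR2 and COR1 form the core of the bc1 complex, and only QCR2 lies on chromosome XVI. QCR2 read 12.82 and 12.91 in TMB3400 at 15 mM, 12.88, 12.86 and 12.80 in TMB3400 at 25 mM, 13.10, 13.11 and 13.09 in FT30-3 at 15 mM, 12.82 and 12.59 in FT30-3 at 25 mM, and 13.08, 12.87 and 12.91 at 36 mM. It was above TMB3400 at 15 mM with no overlap (0.23 ± 0.10, adjusted p = 0.339), and at 25 mM it was at -0.14 ± 0.10 (adjusted p = 0.475). Within FT30-3 its change from 15 to 25 mM was -0.39 ± 0.10 (adjusted p = 0.0674), which passed with array weights, with a robust variance trend, and without FT30-3 replicate 1 at 36 mM. Relative to COR1 alone, QCR2 was higher in FT30-3 by 0.32 at 15 mM and 0.15 at 25 mM, and all 5 FT30-3 arrays at these doses lay above all 5 TMB3400 arrays. At 25 mM QCR2 itself was not higher in FT30-3, while COR1 had a mean of 13.10 in TMB3400 and 12.81 in FT30-3. Relative to the other 8 bc1 subunits the difference was 0.20 at 15 mM and -0.02 at 25 mM, with 4 of the 5 FT30-3 arrays at these doses above every TMB3400 array. Several of these 8 are short genes, and QCR2 was 0.42 above them in replicate 1 at 36 mM against 0.12 and 0.09 in the other arrays; the part of gene length in that value was not tested.

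ATP15, the epsilon subunit of F1, and ATP20, subunit g of the Fo sector, differed less. ATP15 was at 0.14 ± 0.09 between strains at 15 mM (adjusted p = 0.614) and -0.03 ± 0.09 at 25 mM. Relative to ATP1, ATP2, ATP3 and ATP16 it was 0.20 higher in FT30-3 at 15 mM and 0.10 at 25 mM, and 4 of the 5 FT30-3 arrays at these doses lay above all TMB3400 arrays. ATP20 was at 0.11 ± 0.12 and -0.07 ± 0.12, and relative to ATP17 and ATP18 at 0.09 and 0.03, with 1 of 5 arrays above. A gap can come from a higher gene or from lower partners, and at 25 mM QCR2, ATP15 and ATP20 were themselves below TMB3400. The differences of these 4 genes from their partners are descriptions and were not tested.

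**Figure D5:**
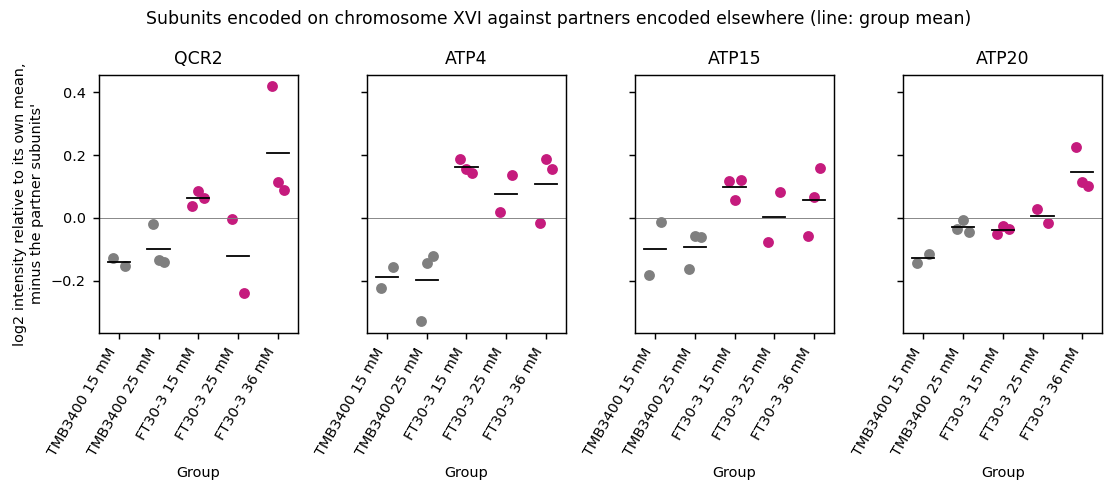
Log2 intensity of each subunit encoded on chromosome XVI, taken from its own mean over 13 arrays, minus the same for its partner subunits encoded on other chromosomes; 1 point per array, grey for TMB3400, magenta for FT30-3, and lines for group means. For ATP4 the 5 FT30-3 points at 15 and 25 mM lie above the 5 TMB3400 points, while the strains overlap for the other 3 genes. Points also lie higher where the partner subunits were lower. The 3 points at 36 mM have no TMB3400 points to be set against.

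Other genes of the pathway on chromosome XVI were called between the strains. Among the assembly factors, regulators and related lists 6 genes lay there, and 4 of these were called higher in FT30-3 in the average. Over the whole chromosome 59% of its 424 genes were called higher. Of the 4, AEP3, COX10 and COX11 are named here after their values were seen, as are HEM13, PET111 and PET122 below. AEP3, which stabilises mitochondrial RNA for ATP synthase subunits, was higher by 0.68 ± 0.06 (adjusted p = 9.35e-05). COX10, an enzyme of heme A synthesis, was higher by 0.50 ± 0.10 (adjusted p = 0.00621), COX11, which helps to insert copper into cytochrome c oxidase, by 0.43 ± 0.06 (adjusted p = 0.00161), and NCA2 by 0.38 ± 0.11 (adjusted p = 0.0497). Leaving out 1 of the 10 arrays compared ended the call of NCA2 in 8 cases and none of the other 3. Of the 76 listed genes on other chromosomes 0 were higher and 4 lower, where 2.39% of all genes on those chromosomes were called higher and 4.78% lower. GUT2, the mitochondrial glycerol-3-phosphate dehydrogenase, was lower in FT30-3 by 0.42 ± 0.08 (adjusted p = 0.00635), and kept its call with each of the 10 arrays left out. HEM13, the oxygen-requiring enzyme of heme synthesis, was at -0.66 ± 0.17 (adjusted p = 0.0313), a call lost in 5 of the 10 cases. PET122 and PET111, which help to translate mitochondrial messages of cytochrome c oxidase, were at -0.70 ± 0.18 and -0.27 ± 0.08 (adjusted p = 0.0281 and 0.0498), calls lost in 6 and 9 of the 10 cases. Both values came mostly from 25 mM, where PET122 was at -1.16 and PET111 at -0.51, against -0.24 and -0.04 at 15 mM, and without FT30-3 replicate 2 at 25 mM the average of PET122 was -0.42.

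Factors that assemble the complexes also fell in FT30-3 at 36 mM. Of 31 factors for the bc1 complex and cytochrome c oxidase, 17 fell and 0 rose from 15 to 36 mM after centring, with a median of -0.44, and 11 fell with the values as deposited. Over all genes 11.2% fell after centring and 4.73% as deposited. CBP4, a bc1 assembly factor, read 12.20, 11.88 and 12.03 at 15 mM and 11.02, 11.24 and 11.39 at 36 mM. SCO1, which delivers copper to cytochrome c oxidase, read 11.80, 11.64 and 11.80 at 15 mM and 11.12, 10.94 and 11.07 at 36 mM. Neither gene overlapped between the doses, and they fell by 0.82 ± 0.12 (adjusted p = 0.000794) and 0.70 ± 0.10 (adjusted p = 0.000911). PET117 and COX23, also factors of cytochrome c oxidase, fell by 0.79 ± 0.12 and 0.78 ± 0.12 (adjusted p = 0.00099 and 0.000988). Of 10 ATP synthase factors 5 fell, and 1 as deposited: ATP12, a chaperone of F1, which fell by 0.68 ± 0.09 (adjusted p = 0.000602). ATP11, its partner chaperone, fell by 0.50 ± 0.11 (adjusted p = 0.0095), AEP2 by 0.39 ± 0.10 (adjusted p = 0.0206) and NCA2 by 0.49 ± 0.14 (adjusted p = 0.0271). AEP2 and NCA2 act on mitochondrial messages of the ATP synthase.

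All 3 other dehydrogenases that feed the chain fell from 15 to 36 mM, where 11.2% of all genes fell. CYB2 and GUT2 had the lowest values of the listed genes outside the 39. CYB2, the lactate dehydrogenase that reduces cytochrome c, read 13.19, 13.17 and 12.71 in FT30-3 at 15 mM, 12.89 and 12.27 at 25 mM, and 11.20, 11.24 and 11.10 at 36 mM. All arrays at 36 mM lay over 1 log2 unit below the rest, and CYB2 fell by 1.84 ± 0.17 (adjusted p = 4.83e-05). GUT2 read 12.96, 12.90 and 12.75 at 15 mM, 12.57 and 12.24 at 25 mM, and 11.98, 11.90 and 11.94 at 36 mM, a stepwise lower signal with no overlap between doses. It fell by 0.93 ± 0.10 from 15 to 36 mM (adjusted p = 0.000153). DLD1, a D-lactate dehydrogenase, fell by 0.61 ± 0.17 (adjusted p = 0.0282), and by 0.41 as deposited, which did not pass (adjusted p = 0.103). CYB2 and GUT2 kept their calls in 24 of 24 alternatives.

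Among the 8 regulators 2 fell and 2 rose from 15 to 36 mM, where 11.2% of all genes fell and 11% rose. HAP4, the activating and rate-limiting subunit of the Hap complex, read 13.16 and 13.15 in TMB3400 at 15 mM, 13.11, 13.02 and 13.03 in TMB3400 at 25 mM, 13.19, 13.28 and 13.14 in FT30-3 at 15 mM, 12.77 and 12.90 in FT30-3 at 25 mM, and 12.74, 12.59 and 12.66 at 36 mM. Its 36 mM arrays were the lowest of the 13, and it fell by 0.54 ± 0.08 (adjusted p = 0.000794), or by 0.34 as deposited (adjusted p = 0.00783). HAP5, which binds DNA in that complex, fell by 0.29 ± 0.09 (adjusted p = 0.0346). TIS11, also named CTH2, degrades messages of iron-containing and respiratory proteins when iron is scarce. It read 8.57, 8.13 and 8.22 in FT30-3 at 15 mM, 9.26 and 9.92 at 25 mM, and 12.08, 11.25 and 11.32 at 36 mM. The doses did not overlap, and TIS11 rose by 3.24 ± 0.27 on the log2 scale (adjusted p = 2.54e-05). Its relative CTH1 rose by 0.37 ± 0.10 (adjusted p = 0.0242). HAP4 and TIS11 kept their calls in 24 of 24 alternatives.

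Of the 6 subunits among the 39 that hold heme or an iron-sulfur cluster, SDH3, CYC1 and CYT1 fell from 15 to 36 mM and SDH2, SDH4 and RIP1 did not pass, with a median of -0.27 against -0.28 over the 39 genes. The remaining lists held few calls, in a comparison where 11.2% of all genes fell and 11% rose. Of 5 other subunits measured, CYC7 and STF2, a stabiliser of the inhibited ATP synthase, fell at 36 mM (STF2 by 0.45 ± 0.14, adjusted p = 0.0417), and TIM11 and ATP19 were at -0.49 ± 0.18 and -0.41 ± 0.16 (adjusted p = 0.0762 and 0.0868). In these 4 genes replicate 1 was the lowest array at 36 mM, 12.87 against 13.62 and 13.69 for TIM11. Without it STF2 was at -0.26 and no longer passed (adjusted p = 0.0631), TIM11 was at -0.23 and ATP19 at -0.21. Among 5 carriers of ADP, ATP and phosphate, PET9, the main ADP/ATP carrier, fell by 0.26 ± 0.06 (adjusted p = 0.0171) and AAC1 by 0.48 ± 0.14 (adjusted p = 0.0334), while the anaerobic isoform AAC3 was at -0.18 ± 0.23 (adjusted p = 0.594). Neither fall passed as deposited, and that of AAC1 was lost without replicate 1 at 36 mM (-0.34, adjusted p = 0.0789). AAC3 was at -0.32 without that array (adjusted p = 0.375). MIR1, a phosphate carrier, was called lower only without it (-0.26, limma adjusted p = 0.0254). Of 9 genes of ubiquinone synthesis COQ2 fell, by 0.49 ± 0.13 (adjusted p = 0.0189), and the median of the 9 was 0.04. Without replicate 1 at 36 mM COQ3, COQ6, COQ8 and COQ9 went from above to below 0, so the sign of that median depended on this array. COQ1 then also fell (-0.47, adjusted p = 0.0173), while COQ4 and COQ10 stayed above 0. Of 11 genes of heme synthesis and cytochrome c maturation 1 rose, HEM4, by 0.33 ± 0.09 (adjusted p = 0.0189), and 0 fell. Without replicate 1 at 36 mM CYC2 of this list fell (-0.25, adjusted p = 0.0282). Of the 35 listed genes outside the 39 that were called from 15 to 36 mM, 20 kept the call with each of the 6 arrays left out in turn, and the other 15 lost it in 1 or more cases, among them STF2, AAC1, PET9, COQ2, HEM4, HAP5, CTH1, DLD1, AEP2 and NCA2.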

How the data were processed

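RNA from 13 chemostat cultures was labelled with biotin and hybridised to Affymetrix arrays, per the labels' protocols, and the series text calls the 2 or 3 replicates of a group biological. The authors deposited 1 intensity per probe set and array, on a linear scale. The submitters' processing notes name R 2.7.2. How background, normalization and summary were done is not given in the sources used. Of 10928 probe sets, the 5498 of S. cerevisiae were used. The 1746 of S. pombe served as background, and their 95th percentile was an intensity of 31.2 to 39 by array. Values were taken as log2(intensity + 1), and each array was shifted to a common median. Array medians as deposited were 10.5 to 10.7 on the log2 scale.

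One mean per group was fitted over all 13 arrays with limma 3.58.1 (lmFit, eBayes) in R 4.3.3, with Benjamini-Hochberg adjustment over all probe sets within a comparison and a threshold of 0.05. The brightest probe set stood for a gene. The number of arrays limits the precision. The fit was also run on simulated data with independent noise for each gene. That simulation held no shift of arrays by dose, brightness or gene length, so it could not test the fit against such shifts. No 2 arrays were identical. Chromosomes and gene lengths came from the RefSeq gene table. No sequences were analysed here.

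The 39 genes and the other gene lists were chosen with earlier results of these data known, and so were the alternatives. The brightness limit of 12, the length limit of 500 bases, cyclic loess and the counts of arrays that do not overlap were chosen after the values were seen. All 39 genes could be named, and of each other list the 4 genes with the smallest p from 15 to 36 mM in FT30-3, plus CYC7, AAC3, HAP4 and TIS11. COX10, COX11, AEP3, HEM13, PET111 and PET122 fall outside that rule. Subunits were set against partners as log2 differences, each gene taken from its own mean over the arrays.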

Additional observations from a re-analysis of the deposited data

Results flagged for a closer look

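After centring, the change of ATP16, the delta subunit of F1, with the lower dose step had opposite signs in the 2 strains. From 15 to 25 mM furfural its log2 change after centring was 0.06 ± 0.08 in TMB3400, where all 25 mM arrays lay above the 15 mM arrays. In FT30-3 it was -0.06 ± 0.08, and all 25 mM arrays lay below. Such separation was seen in many genes: 762 of 5449 genes, and 85 of the 1026 bright ones, lay above in TMB3400. In FT30-3 16.2% of all genes and 39.2% of bright ones lay below. The difference between the strains was -0.12 ± 0.11 (limma, adjusted p = 1, unadjusted p = 0.315) and did not pass. Each of the 2 dose changes was smaller than its standard error, and the sign in FT30-3 depended on the scaling. With the values as deposited, the mean intensity of ATP16 was higher at 25 than at 15 mM in both strains. At 15 and 25 mM it was 9769.52 and 11201.5 in TMB3400, and 9437.74 and 10127.5 in FT30-3. Groups of 2 or 3 arrays were too small to be searched for single outlying arrays.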

How the results depend on the processing

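Among the 39 genes and CYB2, GUT2, DLD1, HAP4, TIS11 and CYC7, no log2 change switched sign while called. The other listed genes were not each followed through all the alternatives. Of the 39 genes, the number called from 15 to 36 mM in FT30-3 was 13, and it was 1 with the values as deposited, 2 with quantile normalization, 2 with cyclic loess, 1 with only the groups compared, 20 with a robust variance trend, 31 with array weights, and 2 to 14 when 1 array was left out. From 25 to 36 mM the count of 1 became 0 with only the groups compared and 0 to 1 with 1 array left out. From 15 to 25 mM in FT30-3 the count of 0 became 1 (QCR2) with the trend and 1 with array weights, and 0 to 1 with 1 array left out. Between strains the count of 0 became 1 at 15 mM with array weights, 0 to 2 at 25 mM with 1 array left out, and, averaged, 1 with quantile normalization, 2 with the trend, 2 with array weights, 1 with only the groups compared, 1 with cyclic loess and 0 to 2 with 1 array left out. The median log2 change from 15 to 36 mM was -0.085 as deposited, -0.135 with quantile normalization, -0.110 with cyclic loess, and -0.31 to -0.21 with 1 array left out. From 15 to 25 mM it was 0.109, 0.040 and 0.0372 in TMB3400, with -0.101 to 0.0224 when 1 array was left out, and -0.0237, -0.0192 and -0.0280 in FT30-3, under the same 3 scalings. Under quantile normalization and cyclic loess it was -0.0569 and -0.0582 between strains at 25 mM, and -0.0513 and -0.0444 for the difference in dose response, which spanned -0.193 to -0.0717 with 1 array left out. The cause of these shifts was not tested. With the replicate number as a block 17 genes were called from 15 to 36 mM, among them the same 13, with ATP17, COX7, COX12 and COX13 added. The numbers did not pair the arrays across all groups. Over 23 pairs of arrays with the same number the correlation of deviations ran from -0.39 to 0.58, and 13 pairs were over 0.1. These 13 pairs (0.19 to 0.58) were all the pairs without an FT30-3 array at 15 mM. Pairs with such an array ran from -0.39 to 0.06. Whether the numbers mark a shared run was not tested.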
